A study of Mus musculus with 17 samples.

Results

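UTX, the H3K27 demethylase encoded by Kdm6a, and the acetylation mark H3K27ac were compared by position in the epidermis of control mice. The members were all peaks of the control UTX list and all peaks of the control H3K27ac list, 547 and 2140 of the 2948 peaks in the 4 deposited lists. They came from chromatin immunoprecipitation followed by sequencing (ChIP-seq) of crosslinked epidermal cells of female mice. Control mice had the genotype Cre-; Utx fl/fl, that is, loxP-flanked Kdm6a alleles without Cre recombinase. The labels hold 3 control UTX libraries and 2 control H3K27ac libraries, although the protocol text gives 3 animals for every group. The only other list used here is that of the UTX antibody in Utx-deleted mice (Cre+; Utx fl/fl, 3 libraries, 213 peaks). In those mice Cre was driven by the Krt14 promoter, which is active in basal keratinocytes, so epidermal cells of other lineages keep Kdm6a. The ages of the mice are not stated in the labels.

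UTX removes methyl groups from lysine 27 of histone H3, the residue that H3K27ac modifies, and it is a subunit of the COMPASS-like complexes that contain KMT2C or KMT2D. These complexes are known to act at enhancers, where UTX can work together with the acetyltransferases p300 and CBP. H3K27ac marks active promoters and enhancers. In the epidermis UTX sites could therefore lie on acetylated chromatin or apart from it, and the positions of the peaks bear on that question.

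Each list was called on the merged libraries of its group, so no peak has a replicate value, and no difference below was tested against the spread between animals. Shares are given with Wilson 95% intervals, which cover counting error only. The lists hold positions without heights, and the sequencing depth behind them is unknown. Peaks were 199 to 720 bp wide for UTX (median 328 bp) and 199 to 1798 bp wide for H3K27ac (median 273 bp). The antibody to UTX also gave peaks in Utx-deleted epidermis, and 71 control UTX peaks (13.0%, 10.4 to 16.1) overlapped one of them. Such overlaps are stated below for some of the UTX peaks described. Where the text is silent on a peak, nothing should be read from that. Among genes that define keratinocytes, 12 of 27 of a basal keratinocyte list had a control H3K27ac peak and none a UTX peak, beside 5.94% and 2.43% of all protein-coding genes. Krt5, Krt14 and Trp63 had no H3K27ac peak. None of 17 immune, 13 fibroblast or 7 Merkel cell markers had a control peak of either kind. At the shares of all genes, lists this short would hold few peaks, so nothing is read from this. Some melanocyte and endothelial markers did have a peak, as given below. Here and below a peak was assigned to the protein-coding gene it lies in, or else to the nearest one at any distance.

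Promoters that lie under a peak give the sequence context in which the marks were seen, and all coordinates are on GRCm38. Of the 32851 promoter windows of the RefSeq table (250 bases before to 50 after a start), 286 lay under a control H3K27ac peak. A UTX peak touched a single window, that of the non-coding gene Hk1os. Among genes with both marks, the promoters of Baz2b, Cflar, Deaf1, Nfatc3, Rfx5, Tmco4 and Uqcc1 lay under an H3K27ac peak. The windows of the 3 of these genes whose UTX peak lay nearest are shown with that of Hk1os, 5′ to 3′ on the gene's strand, from RefSeq (GRCm38.p6). Capitals mark the bases under the H3K27ac peak, or for Hk1os under the UTX peak.
Rfx5 (chr3:94953858-94954157, plus strand): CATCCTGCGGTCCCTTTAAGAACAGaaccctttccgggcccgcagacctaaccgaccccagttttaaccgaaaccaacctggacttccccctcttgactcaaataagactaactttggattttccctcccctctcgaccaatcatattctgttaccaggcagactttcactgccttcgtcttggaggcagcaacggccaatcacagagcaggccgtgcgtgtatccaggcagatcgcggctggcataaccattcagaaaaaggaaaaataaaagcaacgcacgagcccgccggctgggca
Cflar (chr1:58711241-58711540, plus strand): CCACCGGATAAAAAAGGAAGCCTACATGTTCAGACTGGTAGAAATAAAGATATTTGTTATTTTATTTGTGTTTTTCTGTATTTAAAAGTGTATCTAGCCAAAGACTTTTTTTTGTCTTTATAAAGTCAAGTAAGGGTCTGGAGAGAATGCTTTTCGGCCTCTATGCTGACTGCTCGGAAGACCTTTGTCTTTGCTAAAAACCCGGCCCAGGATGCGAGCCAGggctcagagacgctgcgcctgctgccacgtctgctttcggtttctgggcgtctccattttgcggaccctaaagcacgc
Uqcc1 (chr2:155930261-155930560, minus strand): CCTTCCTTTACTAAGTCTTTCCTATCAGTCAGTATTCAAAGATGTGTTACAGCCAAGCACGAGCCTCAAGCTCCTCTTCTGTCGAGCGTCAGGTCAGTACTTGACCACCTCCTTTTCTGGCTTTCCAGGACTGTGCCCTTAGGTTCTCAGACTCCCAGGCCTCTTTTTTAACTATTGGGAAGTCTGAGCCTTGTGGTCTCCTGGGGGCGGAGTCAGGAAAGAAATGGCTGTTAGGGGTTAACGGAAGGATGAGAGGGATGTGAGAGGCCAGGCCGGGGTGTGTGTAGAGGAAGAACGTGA
Hk1os (chr10:62362085-62362384, plus strand): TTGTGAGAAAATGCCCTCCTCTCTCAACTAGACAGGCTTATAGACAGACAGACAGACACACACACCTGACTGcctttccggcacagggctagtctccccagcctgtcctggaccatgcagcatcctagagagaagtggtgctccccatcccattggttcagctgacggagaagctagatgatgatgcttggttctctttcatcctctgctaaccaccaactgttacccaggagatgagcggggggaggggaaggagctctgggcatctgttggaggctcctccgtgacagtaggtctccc

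The H3K27ac peak covered all 300 bases of the Uqcc1 window, 222 of the Cflar window and the first 25 of the Rfx5 window, while the UTX peak covered 72 bases of the Hk1os window. Each window was searched on both strands for TGANTCA (the AP-1 motif), GGGCGG (the GC box), GCCNNNGGC (an AP-2 motif) and CCAAT, with overlapping matches allowed. TGANTCA was found in the Rfx5 window alone among the 4 shown, and CCAAT in those of Rfx5, Uqcc1 and Hk1os. Over all promoters of the table, 7.81% held TGANTCA and 37.4% held CCAAT. The GC box was in the Uqcc1 window and in 35.7% of all promoters, and no window shown held the AP-2 motif, which 16.6% of all promoters held. A match of letters is a description and shows no binding.

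The UTX peaks lay mostly far from the called H3K27ac peaks. These covered 0.0261% of chromosome length, so the distances depend on a sparse list as well as on the place of UTX. The distance from a UTX peak to the nearest H3K27ac peak, edge to edge, had a median of 715 kb, with quartiles of 179 kb and 2.52 Mb and a maximum of 45.6 Mb. Only 4 UTX peaks (0.731%, 0.285 to 1.86) overlapped an H3K27ac peak by at least 1 bp, and 17 (3.11%, 1.95 to 4.92) lay within 10 kb of one. Within 100 kb lay 97 (17.7%, 14.8 to 21.2) and within 1 Mb 313 (57.2%, 53.0 to 61.3). The other 234 UTX peaks (42.8%) had no H3K27ac peak within 1 Mb. In the reverse direction, 31 of the 2140 H3K27ac peaks (1.45%, 1.02 to 2.05) lay within 10 kb of a UTX peak, with a median distance of 1.03 Mb.

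The distances were nevertheless shorter than the length of the chromosomes alone would give. With each chromosome weighted by its number of UTX peaks, 1.19% of chromosome length lay within 10 kb of an H3K27ac peak, 8.39% within 100 kb and 39.8% within 1 Mb. All 3 values are below the intervals of the UTX peaks. The starts of protein-coding genes lay closer to H3K27ac than UTX peaks did, with 6.29% of 17273 starts within 10 kb, 22.6% within 100 kb and a median distance of 493 kb. H3K27ac peaks themselves were clustered, since 51.0% of them had another H3K27ac peak within 10 kb. UTX peaks stood alone, with 8 of 547 (1.46%, 0.743 to 2.86) within 10 kb of another UTX peak.

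**Figure D1:**
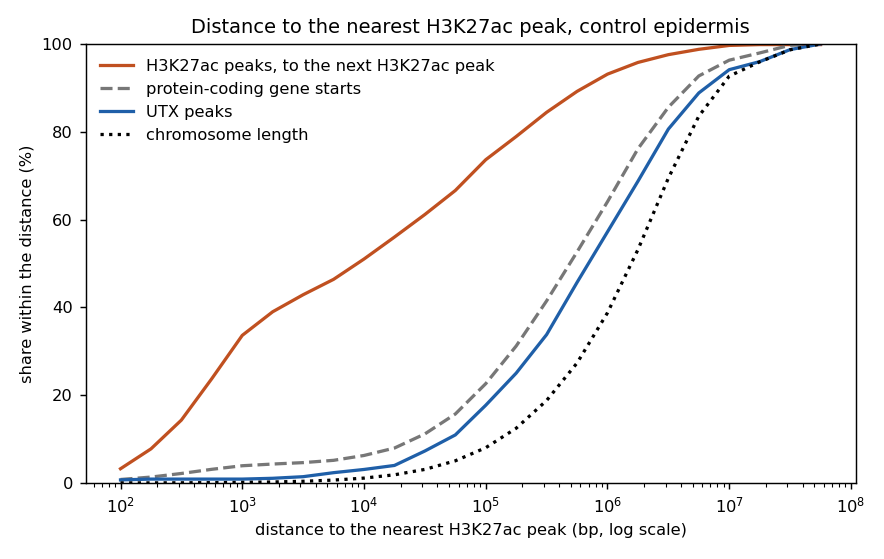
Share of UTX peaks (n = 547), of protein-coding gene starts, of H3K27ac peaks (to the next H3K27ac peak) and of chromosome length (y axis, percent) within a given distance of an H3K27ac peak (x axis, bp, log scale) in control epidermis. The UTX line runs between chromosome length and gene starts at distances from 1 kb to 1 Mb, and at 100 kb it stands at 17.7%, against 8.06% for chromosome length without weights and 22.6% for gene starts.

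The position of a UTX peak relative to genes went along with its distance. The 254 UTX peaks inside genes, away from gene ends, had a median distance to H3K27ac of 485 kb, the 276 intergenic ones 1.07 Mb, and the 17 within 1 kb of a gene end 312 kb. Of the peaks inside genes, 22.4% (17.7 to 28.0) lay within 100 kb of H3K27ac, where 12.3% of gene length did, weighted in the same way. Of the intergenic ones 12.7% (9.26 to 17.1) did, against 5.63% of the length outside genes, which was not weighted. Of the 4 UTX peaks that overlapped H3K27ac, 2 lay inside genes and 2 were intergenic. None of the 17 UTX peaks near a gene end lay within 10 kb of H3K27ac (0%, 0 to 18.4). That interval includes the 3.11% of all UTX peaks, so nothing is read from it. UTX peaks lay a median of 49.5 kb from the nearest gene start, and 6 of 531 (1.13%) lay within 1 kb of one. For H3K27ac the median was 6.71 kb, and 681 of 2084 peaks (32.7%) lay within 1 kb. Gene starts are known here for 17491 of the 21883 protein-coding genes, and chromosome 18 was not used in the values that need them.

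Chromosomes differed in how much H3K27ac they held, whereas UTX peaks were spread more evenly. UTX density ranged from 0.137 peaks per Mb on chromosome 17 to 0.295 on chromosome 11. H3K27ac density ranged from 0.0293 on chromosome X to 2.25 on chromosome 19. Chromosome X held 32 UTX peaks and 5 H3K27ac peaks, and the median distance of its UTX peaks to H3K27ac was 17.7 Mb. On chromosome 19 it was 0.0969 Mb, with 8 of 15 UTX peaks within 100 kb, and on chromosome 11 it was 0.173 Mb, with 11 of 36.

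**Figure D2:**
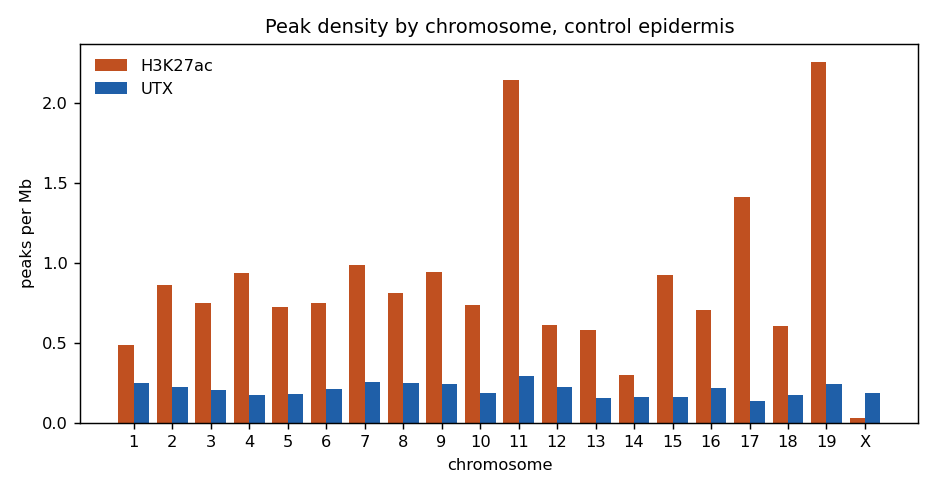
Peaks per Mb (y axis) of the control H3K27ac and UTX lists on each chromosome (x axis), over the length up to the last gene or peak. The H3K27ac bars rise to 2.25 on chromosome 19 and drop to 0.0293 on X, while the UTX bars stay between 0.137 and 0.295.

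The 4 overlapping pairs lay inside 2 protein-coding genes and inside 2 long non-coding RNA genes. Inside Acsl5, which activates long-chain fatty acids by joining them to coenzyme A, the UTX peak chr19:55261981-55262336 overlapped the H3K27ac peak chr19:55261837-55262080. Acsl5 had 3 H3K27ac peaks, all inside the gene. The pair lay 8790 bp (UTX) and 8590 bp (H3K27ac) downstream of its start in the promoter table, which lies inside the gene body. Inside Dpp9, a dipeptidyl peptidase that restrains inflammasome activation, the UTX peak chr17:56199857-56200241 contained the whole of the gene's single H3K27ac peak of 214 bp. The pair assigned to Arid1b, a subunit of the BAF chromatin remodelling complex, lay 367561 bp outside that gene, within the long non-coding RNA gene Gm34259. There the UTX peak chr17:4626017-4626736 was 720 bp wide, the widest of the list, and the H3K27ac peak inside it 453 bp. The pair assigned to N6amt1, a methyltransferase gene, lay 533026 bp outside it, within the long non-coding RNA gene Gm32624. In Utx-deleted epidermis UTX peaks were also called at the Dpp9 and Arid1b sites, and not at the Acsl5 and N6amt1 sites.

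A further 13 UTX peaks lay within 10 kb of H3K27ac without overlapping it. At Zdhhc5, a palmitoyltransferase gene, the UTX peak chr2:84702829-84703147 lay inside the gene and 155 bp from an H3K27ac peak. This gene had 5 H3K27ac peaks, of which 4 were inside it. At Traf2, an adaptor of TNF receptor signalling, the UTX peak lay 4982 bp outside the gene within the long non-coding RNA gene Gm35476, 1788 bp from H3K27ac, and overlapped a Utx-deleted UTX peak.

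The UTX peak assigned to Nemf, a factor of ribosome-associated quality control, covered the whole of Rn7s2, a gene for the 7SL RNA of the signal recognition particle, and lay 2271 bp from H3K27ac. A second gene for this RNA, Rn7s1, lay under the UTX peak assigned to Rps29, a ribosomal protein gene, 204138 bp from H3K27ac. Both UTX peaks were 586 bp wide and both overlapped a Utx-deleted UTX peak. They extended 154 bp before and 133 bp after Rn7s2, and 133 bp before and 154 bp after Rn7s1. As both genes encode the same RNA, reads may not be assignable to one of them, and their separate peaks are uncertain.

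Another 9 of the close UTX peaks lay 3328 to 8468 bp from H3K27ac, and none of them overlapped a Utx-deleted UTX peak. Rfx5, a transcription factor of MHC class II genes, had its UTX peak 3328 bp from an H3K27ac peak of 683 bp that reaches its promoter. Actn4, an actin crosslinker, had its UTX peak 4182 bp from H3K27ac and 6 H3K27ac peaks, the most among genes with both marks. In Cflar, an inhibitor of caspase 8, the distance was 5441 bp, in Rab3gap2 5289 bp, and in Uqcc1, an assembly factor of respiratory complex III, 6269 bp. The UTX peak at the ubiquitin ligase gene Siah1a lay 7054 bp from H3K27ac and that at Stim1, the calcium sensor of the endoplasmic reticulum, 8468 bp. The UTX peaks inside Swi5 and Tlcd5 lay 5220 bp and 6922 bp from H3K27ac peaks of their neighbours Golga2 and Arhgef12, and these were the only 2 of the 17 close UTX peaks whose nearest H3K27ac peak belonged to another gene.

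**Figure D3:**
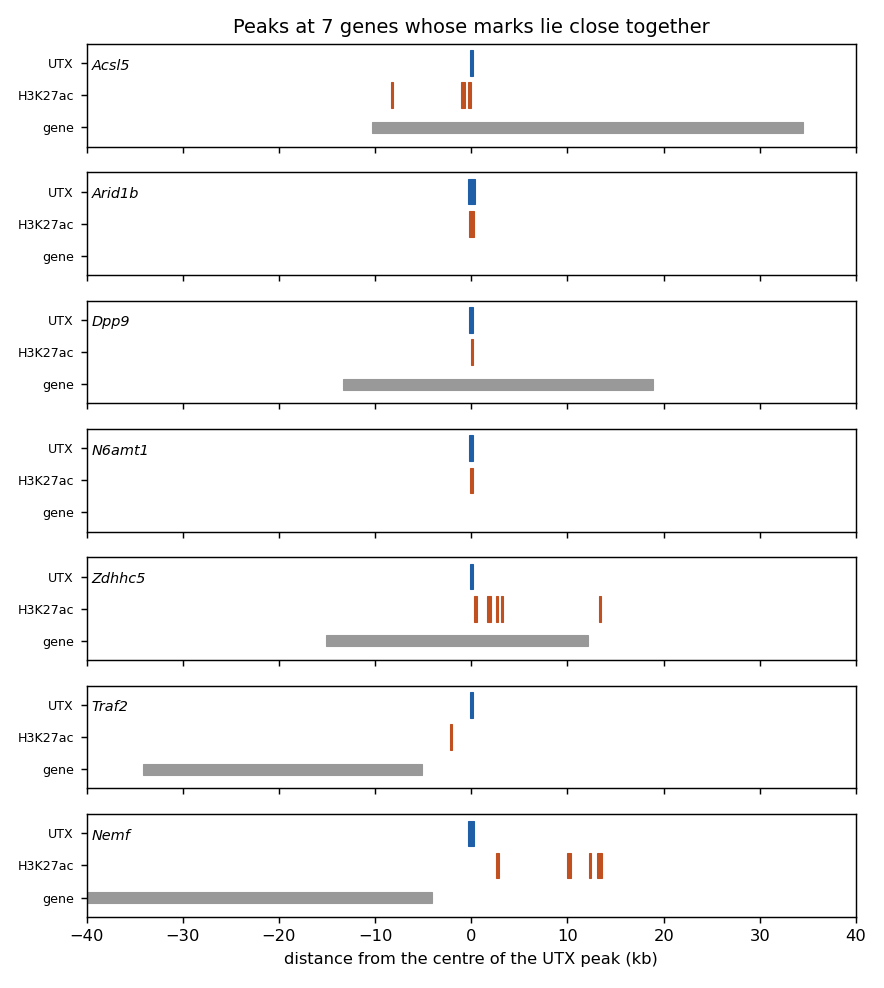
UTX peaks, H3K27ac peaks and the assigned gene at 7 genes whose marks lie close together, drawn to scale by distance from the centre of the UTX peak (x axis, kb, 40 kb to each side). The UTX peak touches H3K27ac in Acsl5, Arid1b, Dpp9 and N6amt1, stands beside rows of H3K27ac peaks at Zdhhc5 (5 in the window) and Nemf (4), and has 1 H3K27ac peak near it at Traf2. No gene body is drawn at Arid1b and N6amt1 because the gene lies outside the window.

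At the level of genes, 532 had a UTX peak and 1299 an H3K27ac peak, out of 21883 protein-coding genes. Both marks were assigned to 51 genes, UTX alone to 481 and H3K27ac alone to 1248. Of the UTX genes, 9.59% (7.37 to 12.4) had an H3K27ac peak, beside 5.94% of all protein-coding genes, a ratio of 1.61. Of the H3K27ac genes, 3.93% (3.00 to 5.13) had a UTX peak, beside 2.43% of all genes. With both peaks required to lie inside the gene, 23 of 261 UTX genes (8.81%, 5.94 to 12.9) also had H3K27ac, beside 4.15% of all genes. Genes with UTX alone thus made up 90.4% of the UTX genes and genes with H3K27ac alone 96.1% of the H3K27ac genes.

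Genes with a UTX peak were longer than genes without one. A peak counts for the gene it lies in, so the assignment itself favours long genes. How far the lengths follow from this rule was not tested. The median length was 62667 bp for genes with UTX alone, 47574 bp for genes with both marks, 24105 bp for genes with H3K27ac alone and 16337 bp for genes with neither. All genes were divided by length into 4 classes of equal size. The longest class held 314 of the 532 UTX genes, and in it 9.24% (6.51 to 12.9) of UTX genes had H3K27ac against 7.68% of all genes. In the third class the shares were 12.0% (7.17 to 19.5) and 6.95%, in the second 8.11% (3.77 to 16.6) and 5.85%, and in the shortest 8.33% (2.87 to 21.8) and 3.27%. The share over all genes lay inside the interval of the UTX genes in 3 of these classes and just below it in the third.

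**Figure D4:**
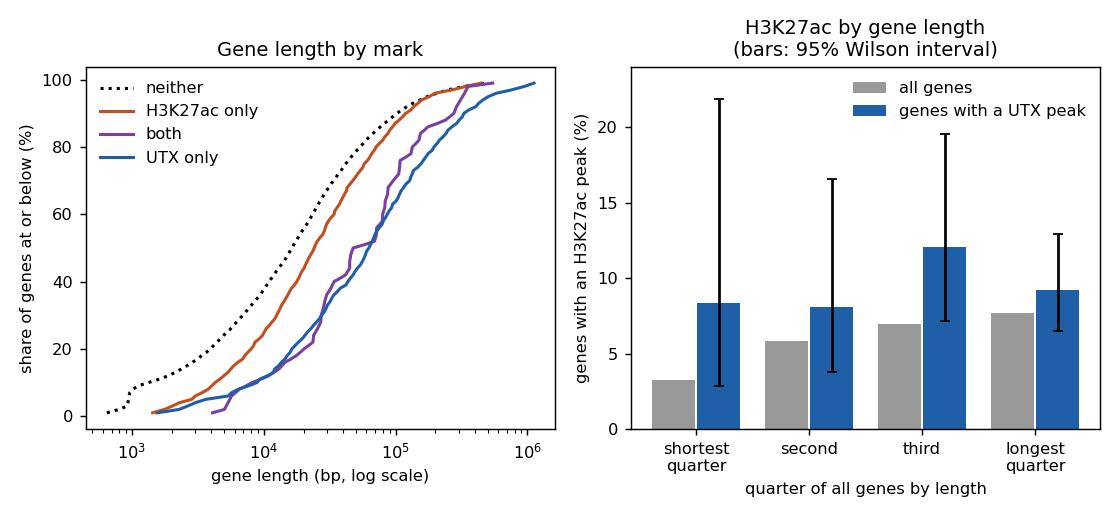
Left, cumulative share of genes (y axis, percent) by gene length (x axis, bp, log scale) for genes with both marks, UTX alone, H3K27ac alone or neither. Right, share of genes with an H3K27ac peak (y axis, percent) among all genes and among genes with a UTX peak in 4 classes of gene length, with Wilson 95% intervals: the UTX bars are higher in each class, from 8.11% to 12.0%, but their intervals include the bar of all genes in all but the third.

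Among the 51 genes with both marks, the marks seldom lay together. The smallest distance between a gene's UTX and H3K27ac peaks had a median of 30.5 kb, with quartiles of 6661.5 and 58780 bp and a maximum of 434 kb. It was within 10 kb in 15 genes and within 100 kb in 45. Both peaks lay inside the gene in 23 genes (median 30.3 kb apart), UTX alone inside in 5, H3K27ac alone inside in 12 and both outside in 11. Of the 97 UTX peaks within 100 kb of H3K27ac, 42 (43.3%, 33.9 to 53.2) shared their gene with the nearest H3K27ac peak. For 44 of the 51 genes a start and strand are known. In 16 of these an H3K27ac peak was centred within 1 kb of the start. In none of the 44 was a UTX peak. Of all UTX peaks only 1.13% lay within 1 kb of a gene start, so nothing is read from its absence in 44 genes. The smallest distance of a UTX peak's centre from the start was 3274 bp, at both Rfx5 and Asrgl1. The start used for Rfx5 lies inside its gene body. The Asrgl1 UTX peak overlapped a Utx-deleted UTX peak. UTX lay upstream of the start in 13 genes and downstream of it in 31. The assignment rule favours the second count, since a UTX peak inside its gene mostly lies downstream of the start. Nothing is read from this split.

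Among the 51 genes with both marks, F11r and Pard6b act in cell junctions and polarity and were singled out after their values were seen. F11r, junctional adhesion molecule A, had 2 H3K27ac peaks inside, and its UTX peak lay 2155 bp outside the gene, 28338 bp from them. For Pard6b, a polarity protein gene, the marks lay 44341 bp apart. Besides Rfx5, the 51 genes included further transcription factor genes, and some with distances around the median of all 51 follow. Not all did so, since the marks of Myc lay 204631 bp apart. The marks lay 30472 bp apart at Xbp1, which acts in the unfolded protein response, 41174 bp apart at Nrf1, a regulator of nuclear genes for mitochondrial proteins, and 42297 bp apart at Rora, a nuclear receptor. At Nfatc3, a calcium-responsive factor, it was 52657 bp, and at Irf2bp2, a corepressor with 3 H3K27ac peaks, 27203 bp. At Tgfbr2, a TGF-beta receptor gene, both marks lay outside the gene, 58417 bp apart, and at Edn1, the endothelin-1 gene, they lay 59143 bp apart. The longest distance was at Tle4, a corepressor gene and the only one of the 51 with 2 UTX peaks, which lay 261370 and 494736 bp outside it.

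**Figure D5:**
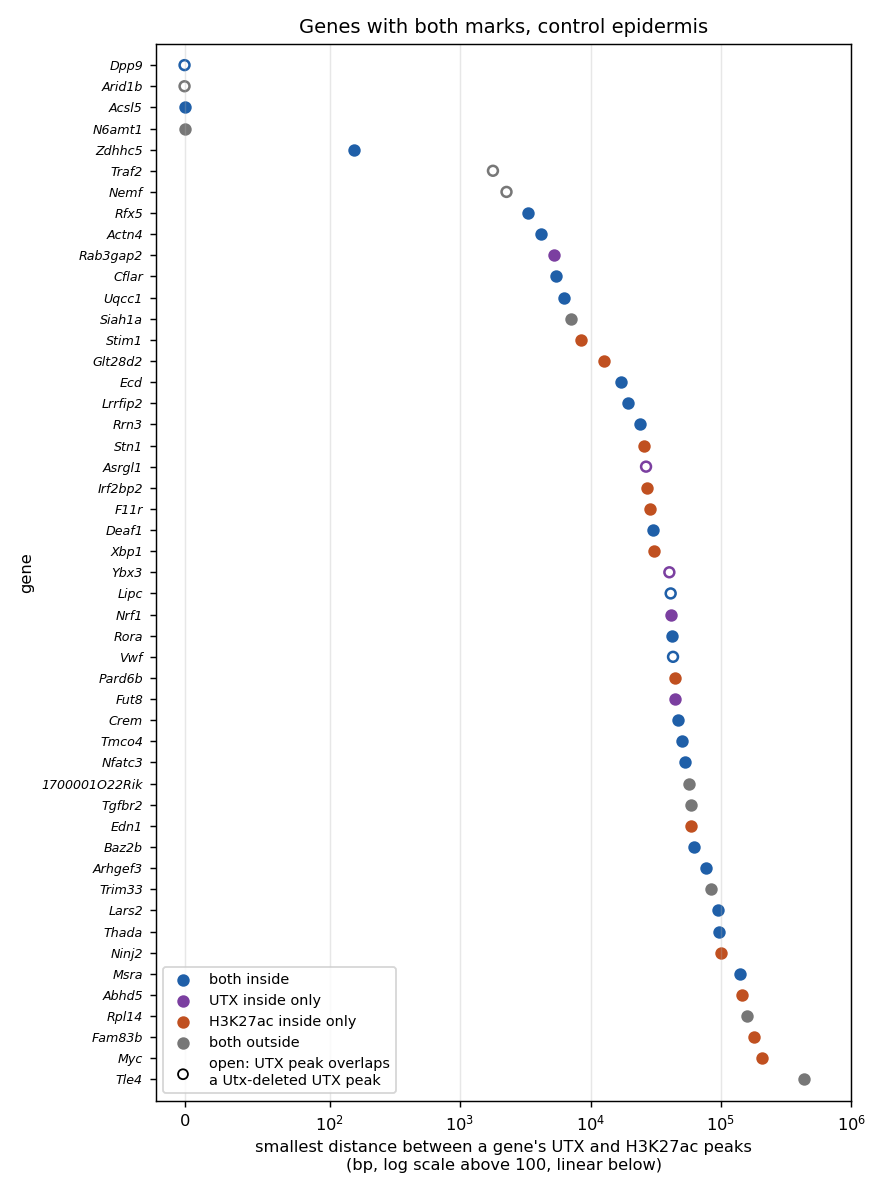
Smallest distance between the UTX and H3K27ac peaks (x axis, bp, log scale above 100) of 49 of the 51 genes with both marks (y axis), coloured by whether the peaks lie inside the gene. Points range from 0 at 4 genes to 434244 bp at Tle4, and open points mark the 8 genes whose UTX peak overlaps a Utx-deleted UTX peak.

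Genes with both marks and genes with a single mark were also compared in the number of their H3K27ac peaks. Genes with both marks had a mean of 1.75 H3K27ac peaks and 22 of 51 (43.1%) had 2 or more, whereas genes with H3K27ac alone had a mean of 1.64 and 385 of 1248 (30.8%). These 2 shares carry no interval, and their difference was not tested. The genes with both marks were also longer, with a median of 47574 bp against 24105 bp. The median width of a gene's widest H3K27ac peak was 305 bp with both marks and 291 bp with H3K27ac alone. A UTX peak that overlaps a Utx-deleted UTX peak was found in 8 of the 51 genes with both marks (15.7%, 8.17 to 28.0) and in 63 of the 481 with UTX alone (13.1%, 10.4 to 16.4). By distance, 2 of the 4 overlapping UTX peaks, 2 of the 13 within 10 kb and 7 of the 80 at 10 to 100 kb had such an overlap. It was 27 of 216 (12.5%) between 100 kb and 1 Mb and 33 of 234 (14.1%) beyond. Promoters had a median of 18 CpG in genes with UTX alone and 19 both in genes with both marks and in genes with H3K27ac alone, against 13 over all protein-coding genes of the table.

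The 481 genes with UTX alone held 495 UTX peaks, which had a median distance to H3K27ac of 866 kb, and 52 of them lay within 100 kb. Ncoa1, a coactivator of nuclear receptors, had 3 UTX peaks, of which the widest, chr12:4417573-4418172, lay inside the gene and overlapped a Utx-deleted UTX peak. The nearest H3K27ac peak to its UTX peaks lay 47868 bp away and was assigned to Itsn2. Kcnq1, a potassium channel gene, and Ano2, a chloride channel gene, had wide UTX peaks of 551 and 576 bp inside the gene, at 353372 and 301797 bp from H3K27ac. Alox5ap, which is needed for leukotriene synthesis, had 2 UTX peaks, one of 585 bp. Malt1, a protease of NF-kB signalling, had a UTX peak of 651 bp, 2974 bp outside the gene and 1734458 bp from H3K27ac. The wide peaks of these 5 genes overlapped a Utx-deleted UTX peak.

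Another set of UTX-only genes had 2 UTX peaks each. In the glycolytic enzyme gene Pfkl and in Mthfd1l, an enzyme of mitochondrial folate metabolism, none overlapped a Utx-deleted UTX peak, and the nearest H3K27ac peak lay 412053 and 854746 bp away. In Cdc27, a subunit of the anaphase-promoting complex, both UTX peaks lay inside the gene, 622882 and 629703 bp from H3K27ac. Around the developmental transcription factor genes Bcl11a and Nr2f1 the UTX peaks lay outside the gene, at 347263 and 926374 bp and at 226120 and 527383 bp from it. The farther Bcl11a peak overlapped a Utx-deleted UTX peak. The ephrin gene Efnb2 had its UTX peaks 907189 and 961036 bp outside. The UTX peaks of Dpep2, a dipeptidase gene, lay inside it and 64308 bp or more from H3K27ac.

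The genes with H3K27ac alone included some with many H3K27ac peaks. All 17 genes with more than 6 H3K27ac peaks lacked UTX, a small number beside the 3.93% of H3K27ac genes that had it, so nothing is read from it. Gata3, which acts in the development of skin and hair follicles, had 19 H3K27ac peaks, and the nearest UTX peak lay 2170016 bp from them. Cdh1, which encodes E-cadherin, and the keratin gene Krt78 had 14 each, with UTX 491484 and 2890191 bp away. Dsp, the desmoplakin gene, had 11 and UTX at 616554 bp, and Sgms1, a sphingomyelin synthase gene, had 11 and UTX at 278227 bp. Tnfaip3, a feedback inhibitor of NF-kB, had 12 and UTX at 2523590 bp. The closest UTX peak among the 10 genes of this rank was that at the tetraspanin gene Cd9, 99755 bp from its 10 H3K27ac peaks.

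Genes of epidermal function often had H3K27ac, while their share with UTX was close to that of all genes. These lists were drawn up with earlier results of these data known, so their H3K27ac counts are not independent evidence. Of 149 genes in 5 lists (basal keratinocyte, cornified envelope, barrier lipid, epidermal transcription factors and AP-1), 49 (32.9%) had H3K27ac, beside the 5.94% of all genes. UTX was found at 4 of the 149 (2.68%), near the 2.43% of all genes. The 20 AP-1 genes had 11 with H3K27ac and none with UTX, and the nearest UTX peak to an H3K27ac peak of Fos, an immediate-early factor, lay 182060 bp away. The 27 basal keratinocyte genes had 12 and none, with the nearest UTX peak 39667 bp from H3K27ac of the plakoglobin gene Jup. The 37 cornified envelope genes had 8 and none.

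The 4 epidermal genes with UTX were Acsl5 and Abhd5 of the barrier lipid list, and Myc and Notch2 of the transcription factor list. At Abhd5, a cofactor of lipid hydrolysis, UTX lay 118550 bp outside the gene and 145020 bp from H3K27ac. The UTX peak assigned to Myc lay 203133 bp outside that gene, within the long non-coding RNA gene Pvt1, and 204631 bp from the gene's H3K27ac peak. Notch2, a receptor gene, had a UTX peak of 236 bp inside and no H3K27ac, the nearest lying 1384298 bp away. Of 29 retinoid genes, 4 had H3K27ac alone (Rara, Rarg, Crabp2 and Ncoa2), 2 had UTX alone (Ncoa1 and Rdh10, a retinol dehydrogenase) and none had both. These were shares of 13.8% with H3K27ac and 6.90% with UTX, beside 5.94% and 2.43% of all genes. Of 28 genes of UTX, its COMPASS-like partners and other regulators of H3K27, Arid1b had both marks, and Kdm6b, a related demethylase with 4 peaks, and Rbbp5, a subunit shared by COMPASS complexes, had H3K27ac alone. The shares were 10.7% with H3K27ac and 3.57% with UTX, beside the same 5.94% and 2.43%, and rest on 3 genes and 1 gene. Kdm6a itself had neither mark.

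Some markers of other cell types had a peak, in small counts. Of 12 melanocyte markers, Tyrp1 and Oca2, both of pigment synthesis, had UTX alone, at 2547581 and 10585188 bp from H3K27ac. The Tyrp1 peak lay 1867 bp outside the gene. Of 10 endothelial markers, Vwf had both marks inside the gene, 42895 bp apart, with a UTX peak that overlaps a Utx-deleted one, and Pecam1 had 6 H3K27ac peaks and no UTX. UTX was thus at 16.7% of the melanocyte and 10.0% of the endothelial markers, beside 2.43% of all genes, and H3K27ac at none of the melanocyte and 20% of the endothelial markers, beside 5.94%. These shares rest on at most 2 genes each and carry no interval, so nothing is read from them. Whether both marks of a gene came from the same cells of this mixed tissue was not tested.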

How the data were processed

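Peak positions were taken from the lists the authors deposited. Per the file headers, the authors pooled the samples of a group and called narrow peaks on them with MACS2. The submitters' processing notes also name FastQC, Bowtie2, deepTools and bedtools, without versions. They name both mm10/GRCm38 and mm39/GRCm39, and the positions matched GRCm38. Of the control H3K27ac peaks, 11.4% lay on a GRCm38 promoter window, against 1.31% and 1.59% when moved by 10 kb either way. Promoter windows of GRCm39 were not tried. No library depth, height or q is given, and 1 unplaced H3K27ac peak was left out where genes or lengths were needed. The Utx-deleted H3K27ac list was not used here.

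Distances were computed edge to edge on a chromosome (0 for an overlap of at least 1 bp). Where a peak lies in several genes it counts for the first by position. Chromosome length runs to the last gene or peak, and Y was left out. A gene's start is its outermost one in the RefSeq promoter table, which for some genes, such as Acsl5 and Rfx5, lies inside the gene body. The members and the gene lists were chosen with earlier results of these data known. Named genes are those of UTX peaks within 10 kb of H3K27ac, genes with both marks, UTX-only genes with wide or several peaks, the 10 H3K27ac-only genes with most peaks, list members with UTX, up to 3 others per list and Kdm6a. A few of these genes are left out of the text and figures and are not reported here. The procedures were tested on simulated intervals. Tables were made with pandas 2.3.3 and numpy 2.4.6 in Python 3.11.15, intervals with scipy 1.17.1 and figures with matplotlib 3.10.9.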

Additional observations from a re-analysis of the deposited data

How the results depend on the processing

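Of 39 alternative values over 8 results, 26 stayed within 1.5 times the count reported, or for the median and the share within their 95% interval. The other 13 follow. With the wider peaks only (274 UTX and 1077 H3K27ac peaks, at or above the median width of their list, which lowers counts by construction), the median distance from UTX to H3K27ac was 1255360 bp. In that setting 2 UTX peaks overlapped H3K27ac, 8 lay within 10 kb and 32 within 100 kb, both marks were assigned to 20 genes, UTX alone to 253 and H3K27ac alone to 718, and 7.33% of UTX genes had H3K27ac against 3.37% of all genes. Without the UTX peaks that overlap a Utx-deleted UTX peak, 2 overlapped H3K27ac. With only peaks inside a gene counted, 23 genes had both marks and 238 UTX alone, and with nearest genes up to 10 kb away counted, 31 and 303. Under these and the other ways tried of choosing peaks or assigning genes, the share of UTX genes with H3K27ac stayed 1.56 to 2.17 times that of all genes. None of these settings took gene length into account, and the classes of gene length fall outside this range. In the longest class the shares were 9.24% and 7.68%, and in the shortest 8.33% and 3.27%. No paired analysis was possible because the peaks were called on pooled libraries. For the same reason single libraries were not left out, and no stricter q was tried, as none is given. With no heights or depth, a site below the calling threshold cannot be told apart from a site without the mark.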

Other observations

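Non-coding genes lay under a share of the UTX peaks. A RefSeq gene that is not protein-coding was overlapped by 58 of them (10.6%, 8.29 to 13.5), and by 314 of the 2140 control H3K27ac peaks (14.7%, 13.2 to 16.2). The share of chromosome length under such genes was not computed. Neither share is therefore read as high or low. Most of the genes under UTX peaks were long non-coding RNA genes, with 54 pairs of a peak and such a gene. Of the 10 widest UTX peaks, those assigned to Arid1b, Rps29, Nemf, Alox5ap and 1500009L16Rik lay on Gm34259, Rn7s1, Rn7s2, Gm24105 and Gm34043, in that order. Overlap with a Utx-deleted UTX peak was seen for 9 of the 10 widest UTX peaks, on non-coding genes or not. It was seen for 13 of the 58 UTX peaks on non-coding genes (22.4%), beside 13.0% of all control UTX peaks.

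Some UTX peaks lay among many H3K27ac peaks without touching them, and these loci were chosen after their values were seen. A UTX peak inside Klhl10 on chromosome 11 had 11 H3K27ac peaks within 100 kb, the nearest at 28969 bp. The UTX peak in Zdhhc5 had 8. At least 5 H3K27ac peaks lay within 100 kb of 10 of the 547 UTX peaks (1.83%), whereas 449 of the 2140 H3K27ac peaks (21.0%) had at least 5 others that near.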
